A study of Danio rerio with 63 samples.

Results

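The transcripts described here belong to 191 protein-coding genes whose polyadenylated RNA fell most between the sphere and 2-somite stages in uninjected zebrafish (Danio rerio) blastoderm explants. They were chosen by their measured levels in the uninjected explants at those 2 stages. Among 6712 protein-coding genes that averaged 20 CPM or more at sphere (CPM, a gene's count scaled to a common library total), genes were ranked by the mean at sphere plus 1 over the mean at 2-somite plus 1, and the top 200 were taken. Of these, 9 were left out by name or name prefix: cldnd, cldng, znf1091, ccna1, znf1058, znf1127, buc, tdrd7a and sox19b. The remaining 191 members come from 32057 genes in the count table, 25107 of them protein coding, and all 191 passed the filter on low counts.

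Explants are pieces of blastoderm cut from the embryo at about 3 h and kept in culture medium until collection. Embryos were left uninjected (U) or were injected at the 1-cell stage, either with 10 pg of ndr2 mRNA (N), which encodes a Nodal ligand, or with 0.5 pg of CA-acvr1b* mRNA (T), which encodes a receptor for Nodal that is constitutively active. Collection times, in hours post fertilization (hpf), were 4 for sphere, 4.7, 5.3, 8 and 9 for 30%, 50%, 75% and 90% epiboly, 6 for shield, which falls between 50% and 75%, and 11 for 2-somite. Each of the 21 groups had 3 biological replicates, lettered A to C, 63 libraries in all. No control mRNA was injected, so the act of injection and the injected message cannot be told apart. The fish strain and the number of explants per library are not given in the sources used here.

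An egg carries RNA and protein made by the mother, and the early embryo runs on that store until its own genome is switched on. Maternal RNAs are then cleared in waves, by factors loaded into the egg and by products of the new genome, among them the microRNA miR-430 in zebrafish, which shortens the poly(A) tails of its targets before they decay. Nodal ligands act through activin-type receptors and Smad2 to set up mesoderm and endoderm in cells at the same stages. The question asked of these genes was whether the Nodal ligand or the active receptor changed the pace at which the transcripts were lost. Because polyadenylated RNA was sequenced from whole explants, decay of an RNA, loss of its tail, fewer cells that hold it and less of it per cell cannot be told apart.

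Library totals ran from 11756626 to 19650245 counts, and a count of 0 allows a level of up to 0.153 to 0.255 CPM depending on the library (3 counts, counting error only). Levels below are CPM scaled with TMM factors, given for replicates A, B and C in that order. Uninjected replicate A stood apart from B and C. Its median over the members was the lowest of the 3 uninjected libraries at 6 of 7 stages, and its median over the 200 genes that rose most between the same stages was the highest at 7 of 7. At 50% epiboly the member medians were 12.9, 25.2 and 31.6 CPM in uninjected A, B and C. The injected series were not uniform either. By the median over the members, CA-acvr1b* B was the lowest of its group at 5 of 7 stages and ndr2 B the highest at 5 of 7. Counts and medians against uninjected explants are given below with and without uninjected A where it moves them. The share of all genes called is given only for the edgeR fit of all libraries. For counts from other fits that share is not printed, so no change in them is read as particular to the members.

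The members span well-known products of the oocyte and many genes that were on none of the role lists used here. Of the 191, 33 were on any of 13 role lists written from general knowledge and 158 were on none, and 46 carry only a clone or locus name. The lists match gene names and are not complete, so absence from them does not mean that a gene has no known role. The egg coat list gave zp3c and zp3d.1, glycoproteins of the envelope around the egg. The list of oocyte RNA regulators gave patl2, a translational repressor of mammalian and frog oocytes, lsm14b, a component of stored messenger particles, cpeb1b, which binds a polyadenylation element, and slbp2, an oocyte form of the histone-mRNA binding protein. Others are h1m, the maternal linker histone, wee2, an oocyte kinase that restrains Cdk1, gdf3, the Vg1-type partner of Nodal ligands, and eomesa, a maternal T-box factor. The transport list, the longest with 710 genes tested, held 8 members, led by slc16a3, a carrier of lactate and other monocarboxylates.

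These lists were not lost as wholes between 30% and 90% epiboly, when 29.3% of all genes tested fell and 27% rose in uninjected explants. There 11 of 19 tested egg coat genes fell and 1 rose, 32 of 76 tested oocyte RNA regulators fell and 22 rose, and 24 of 52 tested genes of the clearance machinery fell and 13 rose. Across the 710 tested transport genes, 266 fell and 178 rose. Several lists went the other way, with more genes rising than falling. Of 85 tested oocyte chromatin genes 40 rose and 21 fell, and of 105 genes of meiosis and mitosis 37 rose and 32 fell. Of 151 cytoskeletal genes 52 rose and 42 fell, of 193 mitochondrial genes 78 and 48, and of 674 transcription factors 197 and 148. On the remaining lists more fell than rose. Of 33 oocyte transcription factors and TGF-beta ligands 13 fell and 9 rose, and of 312 ubiquitin genes 105 fell and 89 rose. Of 367 signalling genes 133 fell and 92 rose, and of 29 early zygotic genes 10 fell and 9 rose.

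The rule's ratio ran from 24.2 to 269 over the members, with a median of 35.2, against 1.97 over all genes ranked. The 10 members with the highest ratio were slc16a3, zgc:113886 (ENSDARG00000077712), si:dkey-146c18.5, FO704836.1, FO834825.2, zgc:113424, FO834825.1, cth1, gdf3 and zgc:100951. In slc16a3 the uninjected libraries held 1202, 1289 and 1155 CPM at sphere, 72.3, 158 and 151 at shield and 2.83, 5.04 and 6.30 at 2-somite. The transcript of cth1, a CCCH zinc-finger protein of the family that binds AU-rich RNA elements, went from 632, 844 and 1014 CPM at sphere to 4.51, 6.66 and 7.73 at 2-somite. That of gdf3 went from 478, 529 and 497 to 3.37, 3.61 and 3.83 CPM. The rule used these libraries at sphere and 2-somite, so no test is attached. It used CPM without TMM factors, so the values printed here do not reproduce its ratios exactly. FO834825.1, FO834825.2 and FO834825.3 share a clone name, and 2 identifiers share the name zgc:113886, so near-identical copies may share reads and their values are uncertain. At the edge of the rule, kcnc2, asap1b, acss1, astn1 and BX927212.1 were among the last inside (ratio 24.2 for BX927212.1 at rank 200), and si:ch211-147a11.3, plxnb2b and st8sia2 were the first outside (24.2, 24.1 and 24.0).

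As a group the members fell from 3.14% ± 0.24 of all counts in uninjected explants at sphere (SD, n = 3) to 2.17% ± 0.37 at 30% epiboly, 1.08% ± 0.44 at 50% epiboly, 0.442% ± 0.0828 at shield, 0.140% ± 0.0687 at 75%, 0.0909% ± 0.0381 at 90% and 0.0487% ± 0.00843 at 2-somite. Measured gene by gene against its own sphere level, the median member stood at 63.5% at 30% epiboly, 27.6% at 50%, 9.64% at shield, 3.69% at 75%, 2.73% at 90% and 1.73% at 2-somite. The median log2 change was -1.21 from 30% to 50% epiboly (4.7 to 5.3 hpf) and -1.39 from there to shield at 6 hpf. It was -1.47 from shield to 75% at 8 hpf and -0.49 from 75% to 90% at 9 hpf. These are changes over whole intervals of unequal length, and per hour the fall was fastest between 30% epiboly and shield. The loss at the ends is set by the rule, and its course between them is a description. With straight lines drawn between stages, the median member reached 0.5 of its 30% epiboly level at 5.23 hpf. For 133 members that point came by 50% epiboly, for 52 between 50% and shield and for 6 between shield and 75%.

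**Figure D1:**
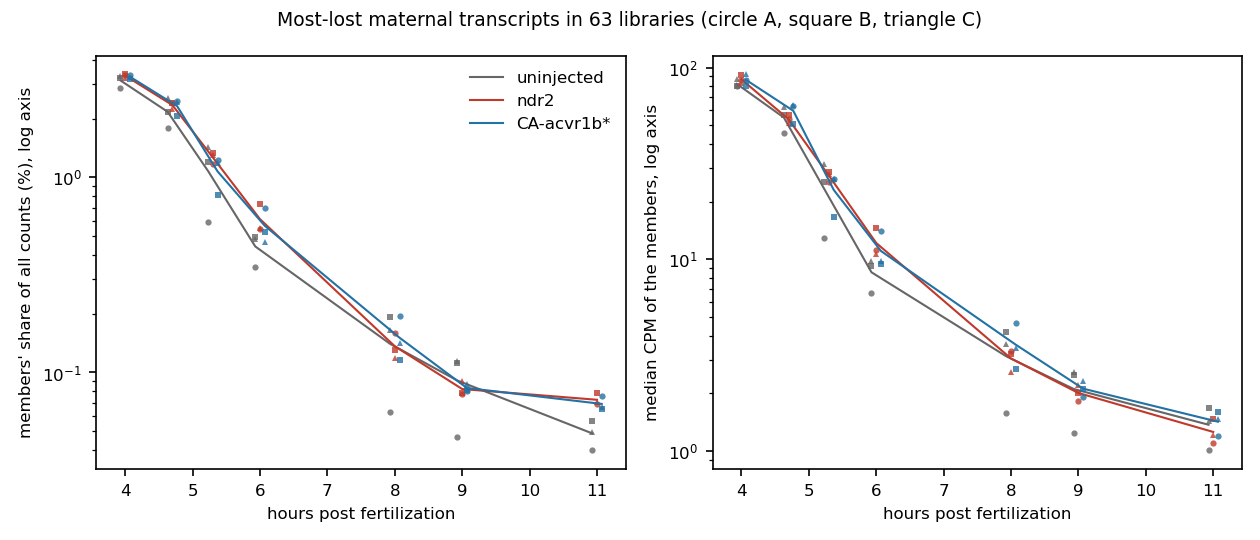
Share of all counts (left, %) and median CPM (right) of the 191 members against hours post fertilization, on log axes. Points are libraries (circle A, square B, triangle C) and lines join the means of the 3 libraries of a group; the 3 conditions fall together, and uninjected A has the lowest median of the uninjected libraries at 6 of 7 stages.

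Oocyte products followed this course at very different levels. The linker histone transcript h1m held 977, 1057 and 1269.8 CPM in uninjected explants at sphere, 101, 149 and 150.2 at shield and 10.2, 30.6 and 28.9 at 90% epiboly. The repressor patl2 held 99.8, 102 and 99.0 CPM, then 10.5, 10.3 and 8.26 and then 0.909, 1.83 and 0 at the same stages. Both are low at 90% in every library, and uninjected A is the lowest for h1m at all 3 stages.

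The egg coat gene zp3c went from 85.4, 99.6 and 107 CPM at sphere through 19.6, 20.2 and 21.5 at shield to 1.32, 2.57 and 3.35 at 90%, and zp3d.1 from 138, 154 and 132 through 16.9, 29.6 and 28.2 to 0.909, 4.89 and 9.63. The messenger-particle gene lsm14b fell from 190.2, 255 and 449.7 CPM to 7.85, 10.1 and 9.89, with its sphere libraries spread widely. The T-box gene eomesa fell from 86.4, 205 and 211 CPM at sphere to 26.5, 38.9 and 56.3 already at 30% epiboly, an earlier loss than that of gdf3, which still held 388, 388 and 450.4 CPM there. The histone-mRNA binding gene slbp2 fell from 39.1, 46.2 and 56.9 to 1.00, 2.59 and 1.28 CPM by shield, and cpeb1b from 27.5, 45.8 and 78.9 to 3.87, 6.90 and 5.26.

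**Figure D2:**
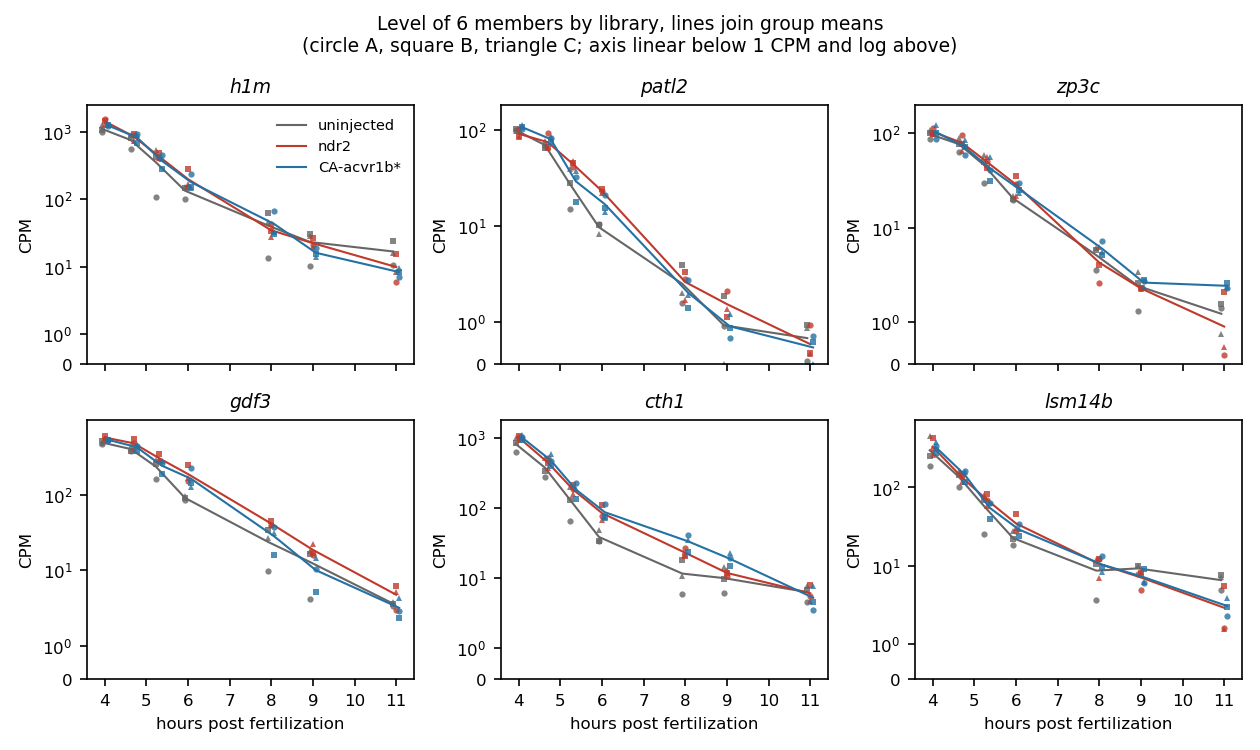
Level of 6 members (CPM, linear below 1 and log above) against hours post fertilization. Points are libraries (circle A, square B, triangle C), lines join group means; all 6 fall over the same stages in the 3 conditions, and the uninjected mean is the lowest of the 3 at shield in each.

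Not every member behaved as a maternal store that only declined. No egg or earlier stage was sampled, and 35 of 191 members had a higher mean at 30% epiboly than at sphere in uninjected explants, 38 in ndr2 and 38 in CA-acvr1b*. In the injected explants, whose libraries the rule did not use, a rise from sphere to 30% epiboly passed the test (edgeR quasi-likelihood F-test, adjusted p under 0.05) for 6 members in ndr2, where 18.2% of all 19069 genes tested rose, and for 6 in CA-acvr1b*, where 16.5% did. In both these were blf, has2, per1b, CR450793.1, si:dkey-11o15.10 and gadd45bb. The zinc-finger gene blf, known as an early zygotic gene, stood at 253, 159 and 322 CPM at sphere and 829, 828 and 820.1 at 30% epiboly in ndr2 explants, without overlap. Transcripts of has2, which makes hyaluronan, stood at 31.3, 15.5 and 56.2 and then 182, 174 and 154 CPM. The level of these members rose before it fell, and for the rest RNA from the mother and RNA made before sphere cannot be told apart.

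Loss went on in both injected conditions. From sphere to 2-somite, 188 of 191 members fell in ndr2 explants, against 32.5% of all genes tested, and 190 of 191 in CA-acvr1b*, against 32.1%. The exceptions were her5, her11 and znf710a in ndr2 and her11 in CA-acvr1b*. Applied to the ndr2 libraries instead, the same rule took 191 genes, 144 of them members (75.4% of each list), and applied to the CA-acvr1b* libraries 188 genes, 142 of them members (75.5% of that list and 74.3% of the members).

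From 30% to 90% epiboly, stages the rule did not use, 191 members fell in uninjected explants, 191 in ndr2 and 190 in CA-acvr1b*, where 29.3%, 29% and 28.6% of all genes fell. The exception was igdcc3, an immunoglobulin-superfamily gene, in CA-acvr1b*, with a log2 change of -0.92 (SE 0.58, adjusted p = 0.18). The median log2 change of the members was -4.51 in uninjected, -4.79 in ndr2 and -4.81 in CA-acvr1b* explants, against -0.03, -0.0005 and 0.09 over all genes. The count in uninjected explants is a description, since the rule chose genes that fell there over a longer span.

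The pace of loss was measured as the slope of the log2 level on hours over 30%, 50%, shield, 75% and 90% epiboly. The median slope was -0.99 per hour in uninjected explants, -1.10 in ndr2 and -1.06 in CA-acvr1b*. Taken as an average over these stages, that is a loss of 49.8%, 53.4% and 51.9% of the level per hour. The loss was not even from hour to hour. In uninjected explants it was fastest between 30% epiboly and shield and slower from shield to 90%, as given above. From 50% epiboly to shield the median log2 change was -1.39 in uninjected, -1.07 in ndr2 and -1.05 in CA-acvr1b* explants. From shield to 75% it was -1.47, -2.03 and -1.78, and from 30% to 50% -1.21, -1.02 and -1.33. The injected medians thus fell less just before shield and more after it, and a slope over 5 stages averages over this. These interval differences were not tested, and both rest on the level at shield. In uninjected explants slopes ran from -2.48 for her5 to -0.32 for fjx1. Oocyte genes lay across that range, with -1.34 for patl2, -1.26 for slbp2, -1.15 for gdf3, -1.14 for zp3c, -1.12 for h1m, -0.87 for lsm14b, -0.81 for eomesa and -0.59 for cpeb1b.

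A difference in pace between conditions passed the test for few members. Between ndr2 and uninjected explants the slope differed for 1 member, znf710a, where it differed for 2.73% of all genes. Between CA-acvr1b* and uninjected it differed for 4 members (her5, her11, has2 and znf710a), where it differed for 1.73% of all genes. Between the injections it differed for 2 members, her5 and her11, where it differed for 0.236% of all genes. The shares among members were 0.524%, 2.09% and 1.05%. The 52 tested genes of the clearance machinery, most of them not members, gave 2 with a higher slope in ndr2 than in uninjected and 0 in CA-acvr1b*. Over all genes 2% and 1.33% had a higher slope. Of 29 early zygotic genes 7 had a higher slope in each injected condition, with 0 lower in ndr2 and 1 in CA-acvr1b*. In ndr2 it was higher for 7 of 76 oocyte RNA regulators, 7 of 85 oocyte chromatin genes and 0 of 19 egg coat genes. It was lower for 0, 1 and 0 of these.

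The median differences in slope were small beside the median slopes. The median slope difference was -0.08 per hour for ndr2 minus uninjected, -0.05 for CA-acvr1b* minus uninjected and -0.03 for ndr2 minus CA-acvr1b*. It was negative, a steeper fall in the first-named condition, for 137, 126 and 113 of 191 members, and the median over all genes was 0.006, 0.02 and -0.007. It lay within 0.5 of 0 for 189, 186 and 188 of 191 members. The 95% interval of a single member's difference reached 0.246, 0.246 and 0.243 to each side in the median member, before any adjustment for the number of genes. For h1m the difference was -0.12 ± 0.11 (SE) in ndr2 and -0.13 ± 0.11 in CA-acvr1b*, each minus uninjected, for patl2 -0.02 ± 0.13 and -0.13 ± 0.13, for gdf3 0.06 ± 0.09 and -0.09 ± 0.09, and for zp3c -0.08 ± 0.09 and 0.06 ± 0.09. The count for ndr2 minus uninjected was 12 without uninjected replicate A (2 shallower and 10 steeper slopes in ndr2), 2 without uninjected B and 5 without uninjected C. That for CA-acvr1b* minus uninjected was 10 without uninjected A (5 shallower and 5 steeper). DESeq2 called 8 members for ndr2 minus uninjected, 1 with a shallower and 7 with a steeper slope.

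**Figure D3:**
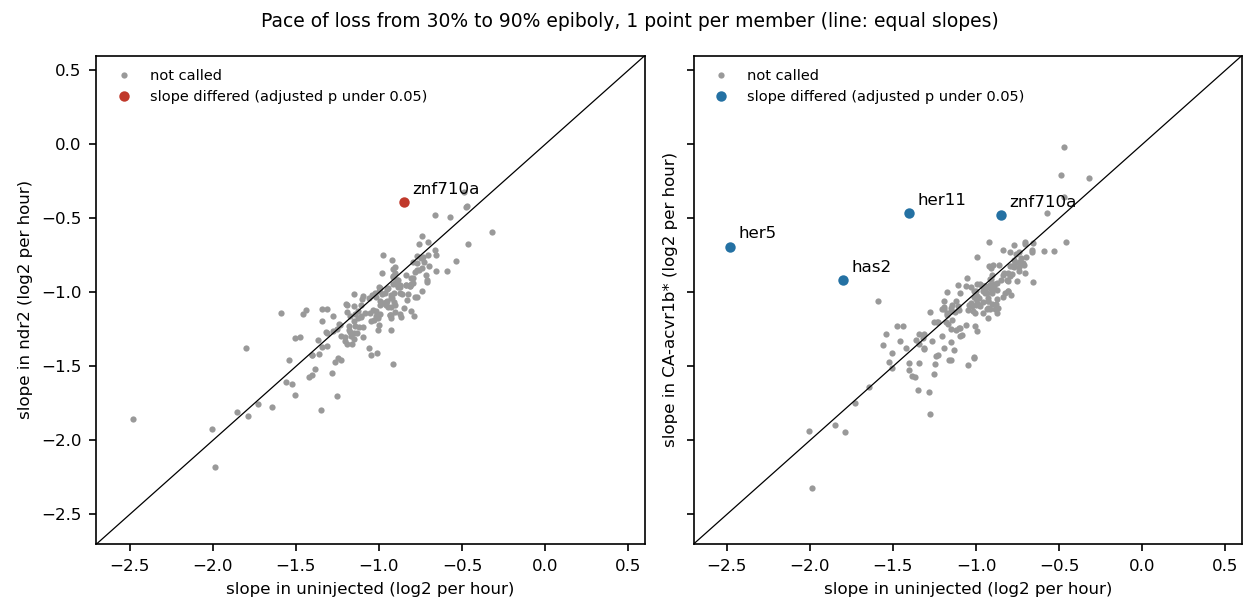
Slope of log2 level per hour from 30% to 90% epiboly in ndr2 (left) and CA-acvr1b* (right) against that in uninjected explants, 1 point per member; the line marks equal slopes. Grey points were not called. The coloured ones, znf710a in ndr2 and her5, her11, has2 and znf710a in CA-acvr1b*, lie above the line, which is a shallower slope over the 5 stages. A level that stopped falling or rose late also gives a shallower slope.

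The 4 exceptions fell with the rest from 30% epiboly to shield in all conditions and stood higher in CA-acvr1b* than in uninjected explants at 90%. In ndr2 explants at 90% her5 and znf710a lay above uninjected, while her11 and has2 overlapped it. The Hairy-related repressor her5, known in zebrafish for its part at the midbrain-hindbrain boundary, held 48.2, 99.5 and 119.9 CPM in uninjected, 89.6, 105 and 83.7 in ndr2 and 112, 70.8 and 91.0 in CA-acvr1b* explants at 30% epiboly. At 75% it held 0.158, 0.256 and 0.0824 in uninjected, 0.369, 0.0805 and 0.0806 in ndr2 and 5.28, 2.67 and 2.08 in CA-acvr1b*. At 90% the values were 0, 0.0612 and 0, 0.366, 0.666 and 0.893 and 8.51, 8.92 and 3.22. The 3 CA-acvr1b* libraries lie above all others at both stages. Their mean was 3.00 CPM at shield, 3.34 at 75% and 6.88 at 90%, so the slope takes in a level that no longer fell after shield. The slope difference was 1.79 (SE 0.27, adjusted p = 1.4e-05) for CA-acvr1b* minus uninjected, past the threshold in all 18 alternatives tried. It was -1.16 (SE 0.19, adjusted p = 6.7e-04) for ndr2 minus CA-acvr1b*, a call lost without replicate B of every group and over all 7 stages, as was that of her11. The uninjected libraries at 90% held 1 count of her5 in all, so the fitted size of the first depends on the small count added in the fit and is not a bound.

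The second Hairy-related gene, her11, is the next gene to her5 on the chromosome in the GRCz12tu gene order. It held 0, 0.367 and 0.774 CPM at 90% in uninjected, 0.275, 0.370 and 0.952 in ndr2 and 10.8, 5.64 and 4.59 in CA-acvr1b* explants, the last without overlap with the others. Summed over the CA-acvr1b* libraries, her11 had 242 counts at shield, 205 at 75% and 288 at 90%, so the slope takes in a fall that stopped. Its slope difference was 0.94 (SE 0.14, adjusted p = 1.3e-05) for CA-acvr1b* minus uninjected and -0.96 (SE 0.14, adjusted p = 4.5e-05) for ndr2 minus CA-acvr1b*. At 2-somite both genes were present in ndr2 explants too. There her5 held 23.5, 22.5 and 52.3 CPM in ndr2 and 34.7, 17.7 and 21.8 in CA-acvr1b*, and her11 15.8, 18.5 and 24.3 and 22.9, 9.57 and 17.5. The uninjected libraries held 0, 0 and 0.844 of her5 and 0, 0 and 0 of her11. Uninjected libraries of this stage chose the members, so their low values there were set by the rule.

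The hyaluronan synthase gene has2 held 0, 0.917 and 2.15 CPM at 90% in uninjected, 1.65, 2.44 and 4.40 in ndr2 and 14.8, 12.8 and 8.77 in CA-acvr1b* explants, so CA-acvr1b* lay above both. Its slope difference for CA-acvr1b* minus uninjected was 0.88 (SE 0.18, adjusted p = 0.0028), and it was not past the threshold without replicate A or B of every group.

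The zinc-finger gene znf710a fell to 7.18, 5.31 and 4.37 CPM in uninjected explants at 75%, to 6.57, 13.5 and 10.5 in ndr2 and to 5.73, 5.81 and 6.24 in CA-acvr1b*. At 90% it stood at 4.30, 3.36 and 4.99, 44.1, 41.2 and 32.5 and 35.7, 14.9 and 11.7, so both injected groups were above uninjected and ndr2 overlapped CA-acvr1b* through 1 library. Every injected library stood higher at 90% than the libraries of its group at 75%, so the slope takes in a late rise. Its slope difference was 0.46 (SE 0.10, adjusted p = 0.0047) in ndr2 and 0.37 (SE 0.10, adjusted p = 0.039) in CA-acvr1b*, each minus uninjected. The first was not past the threshold without replicate B or C of every group. The second, with the higher adjusted p, was not followed through the alternatives.

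**Figure D4:**
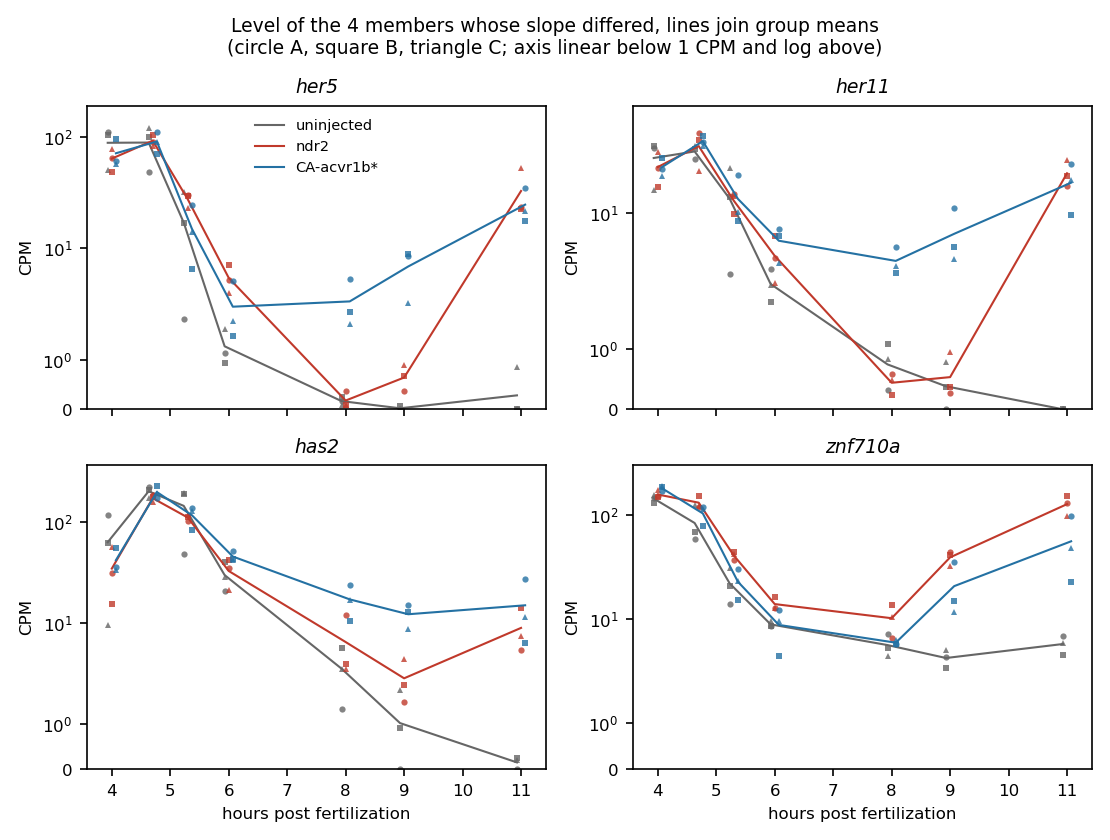
Level of her5, her11, has2 and znf710a (CPM, linear below 1 and log above) against hours post fertilization. Points are libraries (circle A, square B, triangle C), lines join group means; CA-acvr1b* libraries hold her5 and her11 at 75% and 90% epiboly when ndr2 and uninjected libraries hold at most 1.09 CPM, and all injected libraries hold all 4 genes at 2-somite.

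A return of transcript between 90% epiboly and 2-somite passed the test within the injected conditions, whose libraries the rule did not use. In ndr2 explants 9 members rose, where 4.32% of all genes rose: her5, her11, tenm4, igdcc3, znf710a, plxnb1a, cnnm2a, asap1b and acss1. In CA-acvr1b* explants 5 rose, where 2.45% did: plxnb1a, tenm4, zgc:158403, her5 and znf710a. These shares are close to the background. The teneurin gene tenm4, a cell-adhesion receptor, went from 1.74, 3.41 and 3.03 CPM to 29.1, 4.39 and 34.3 in ndr2 and from 2.11, 1.80 and 3.62 to 14.2, 16.0 and 8.95 in CA-acvr1b*, with ndr2 replicate B far below A and C. Summed markers of mesoderm and endoderm (15 genes, 13 tested) also differed between the conditions, at 28.8 to 164 CPM in uninjected, 414 to 1247 in ndr2 and 1468 to 1990 in CA-acvr1b* explants at 90%, and 8 of the 13 were under 1 CPM in uninjected. Their part in the returned levels was not tested.

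Among the stages that the rule did not use, the members' median difference from uninjected explants was highest at shield, a stage singled out after the values were seen. The members' median log2 difference from uninjected was 0.05 at 30%, 0.24 at 50%, 0.59 at shield, -0.002 at 75% and -0.09 at 90% in ndr2 explants, and 0.10, 0.003, 0.39, 0.08 and -0.15 in CA-acvr1b*. Over all genes these medians lay between -0.06 and 0.01. Without uninjected replicate A the members' medians were -0.07, -0.07, 0.42, -0.32 and -0.35 in ndr2 and -0.01, -0.26, 0.28, -0.22 and -0.44 in CA-acvr1b*, so shield alone stayed above 0 and several others changed sign. At shield the median of the members was 6.66, 9.26 and 9.76 CPM in uninjected A, B and C, 11.2, 14.6 and 10.7 in ndr2 and 14.0, 9.41 and 9.75 in CA-acvr1b*. All ndr2 libraries were above all uninjected ones, and CA-acvr1b* overlapped uninjected.

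In ndr2 explants at shield 9 members were higher than in uninjected, where 0.635% of all genes were higher. They were rbm46, zgc:113886 (ENSDARG00000077712), slc6a6b, FO834825.2, slbp2, si:dkey-146c18.5, arpp21, zgc:77112 and cntd2. For slbp2 the values were 1.00, 2.59 and 1.28 CPM in uninjected and 3.72, 7.35 and 4.26 in ndr2, a log2 difference of 1.66 (SE 0.44, adjusted p = 0.047). For rbm46, an RNA-binding protein of mouse germ cells, they were 0.501, 0.784 and 1.28 and 2.92, 3.61 and 4.54, a difference of 2.11 (SE 0.54, adjusted p = 0.034). Counted by libraries that do not overlap, 79 members (41.4%) were higher in every ndr2 library than in every uninjected one, where 11.1% of all genes were. The count for CA-acvr1b* was 33 members (17.3%), where 5.65% of all genes were.

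No member was called between CA-acvr1b* and uninjected at shield, where 0.472% of all genes were, or between ndr2 and CA-acvr1b*, where 0.205% were. At an unadjusted p under 0.05 edgeR gave 21 and 16 members in these, and DESeq2 called 1 in each. For ndr2 minus uninjected DESeq2 called 20. The share of all genes is given for none of these counts. A fraction of 0.05 of genes without a difference would pass the unadjusted threshold. The edgeR calls for ndr2 minus uninjected depend on the libraries. There were 0 without ndr2 B or C, 1 without ndr2 A, 2 without uninjected B, 3 without uninjected C and 8 without uninjected A. The 194 tested genes in the next 200 ranks of the rule had a median of 0.31 at shield for ndr2 and 0.32 for CA-acvr1b*. The 200 most-risen genes, chosen from the same uninjected libraries at sphere and 2-somite, had medians of -0.39 and -0.40 at shield. Their medians were below 0 at every stage not used to choose them. These ran from -0.39 to -0.18 in ndr2 and from -0.73 to -0.13 in CA-acvr1b*. At sphere and 2-somite the medians were -0.54 and -0.41 in ndr2 and -0.34 and -0.36 in CA-acvr1b*. Uninjected libraries of those stages chose these genes, so no conclusion is drawn from the values there. Summed mesoderm and endoderm markers were at 429 to 667 CPM in uninjected, 1312 to 1472 in ndr2 and 1383 to 2223 in CA-acvr1b* explants at shield, and 10 markers of the yolk syncytial layer (6 tested) at 288 to 403, 131 to 228 and 77.8 to 247. The part of any of these in the members' levels was not tested.

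The time at which a member reached 0.5 of its 30% epiboly level differed by minutes between conditions. The median member reached that point at 5.23 hpf in uninjected, 5.29 in ndr2 and 5.20 in CA-acvr1b* explants. By replicate letter the medians were 5.113, 5.288 and 5.289 hpf in uninjected, 5.256, 5.356 and 5.419 in ndr2 and 5.206, 5.157 and 5.211 in CA-acvr1b*, so ndr2 and uninjected overlap and uninjected A is the earliest of all. The median difference from uninjected was 4.97 min for ndr2, later in 163 of 191 members, and 2.11 min without uninjected A, later in 127. For CA-acvr1b* it was -0.82 min, -3.59 min without uninjected A, 0.433 min without uninjected B and 1.10 min without uninjected C, so its sign depends on the uninjected library left out. These times are a description, chosen after the values were seen.

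Of the other stages that the rule did not use, each gave 4 or fewer calls in each comparison with uninjected explants, with all libraries. At 30% and 50% epiboly 0 members were called for ndr2 minus uninjected, where 0.225% and 1.46% of all genes were, and 0 for CA-acvr1b* minus uninjected, where 0.173% and 0.357% were. No share of all genes is given at an unadjusted p under 0.05. There edgeR gave 2 and 16 members for ndr2 and 0 and 0 for CA-acvr1b*. The count for ndr2 at 50% was 10, all higher, without uninjected replicate C and 0 without uninjected A. At 75% ndr2 differed for 2 members (fbxo32 higher and grin2ab lower), where 1.81% of all genes differed. At the same stage CA-acvr1b* was higher for 4 (her5, her11, fbxo32 and cth1), where 1.22% of all genes were. Leaving out uninjected replicate A gave 1 higher and 10 lower for ndr2 at 75%, and 4 higher and 1 lower for CA-acvr1b*. The F-box gene fbxo32 held 0.789, 3.39 and 3.13 CPM in uninjected, 7.09, 6.12 and 7.65 in ndr2 and 7.25, 7.21 and 7.76 in CA-acvr1b* explants at 75%, without overlap between injected and uninjected. At 90% ndr2 differed for 3 members (znf710a and larp6b higher, nbeaa lower), where 2.61% of all genes differed. CA-acvr1b* was higher for her5, her11, has2 and znf710a, where 1.93% of all genes were, and ndr2 was lower than CA-acvr1b* for her5 and her11, where 0.336% were. Shares of all genes are not given for the fits that follow, which leave out libraries. Without uninjected replicate A the counts at 90% were 19 for ndr2 (2 higher and 17 lower) and 15 for CA-acvr1b* (4 higher and 11 lower). Without ndr2 B that for ndr2 was 1. The count between the injections was 1 without ndr2 A, ndr2 B, ndr2 C or CA-acvr1b* B.

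**Figure D5:**
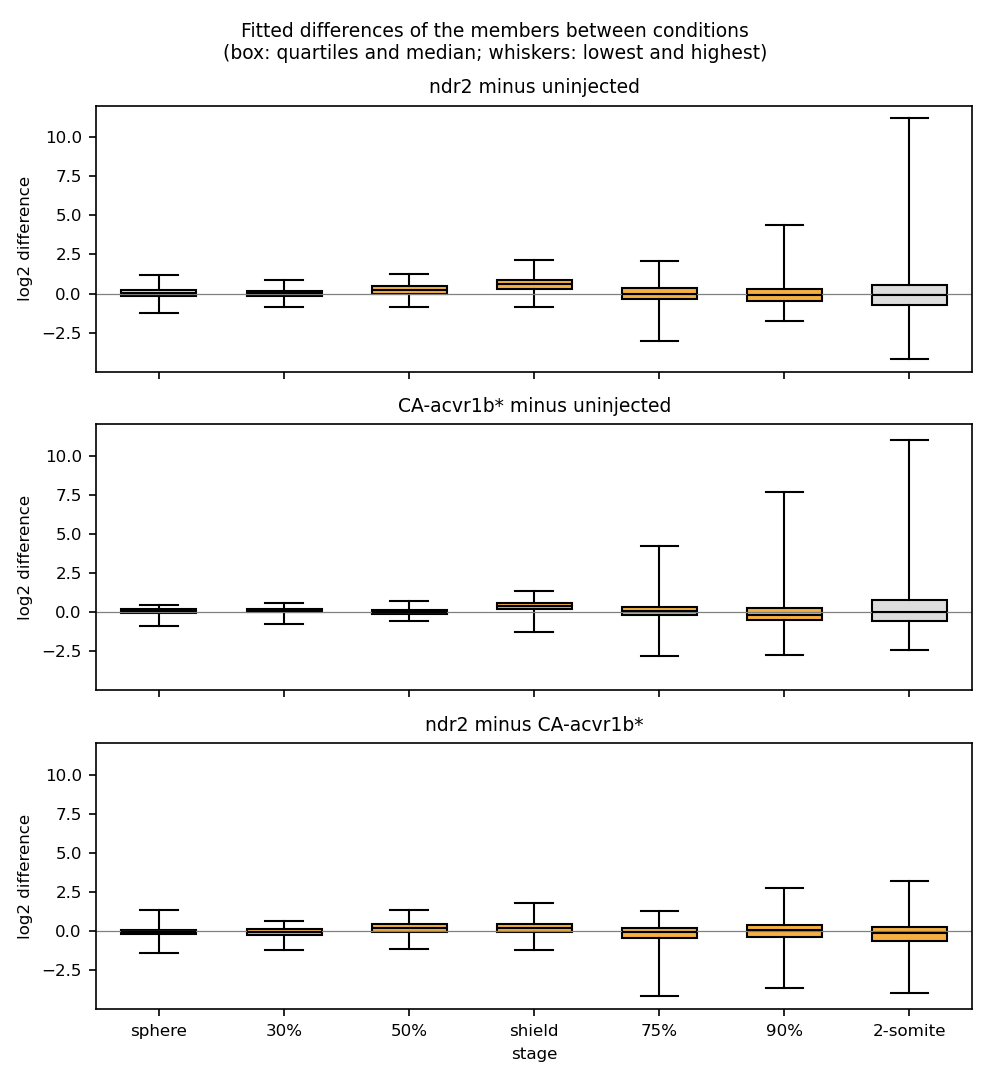
Fitted log2 differences of the 191 members between conditions at each stage. Boxes give quartiles and median and whiskers the lowest and highest member; grey boxes mark stages whose uninjected libraries chose the members. The medians for ndr2 and CA-acvr1b* minus uninjected are highest at shield, 0.59 and 0.39.

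Averaged over the 5 stages from 30% to 90% epiboly, 26 members were higher in ndr2 than in uninjected explants and 3 lower. Over all genes 5.42% were higher and 7.97% lower, and 13.4% were called in either direction against 15.2% of the members. Without uninjected replicate A the split turned round, to 15 higher and 28 lower, and the median of the members went from 0.14 to -0.11. Without ndr2 B 16 were higher and 3 lower. The highest were znf710a, stx11a and zgc:113886 (ENSDARG00000077712), and the 3 lower ones grin2ab, nbeaa and cited2. For znf710a the mean difference was 1.25 (SE 0.16, adjusted p = 2.6e-07). The syntaxin gene stx11a, of the membrane-fusion machinery, held 2.86, 3.37 and 2.03 CPM at shield in uninjected and 6.65, 7.93 and 6.24 in ndr2 explants, with a mean difference of 1.04 (SE 0.25, adjusted p = 0.0029), a call lost without replicate A or B of every group and over all 7 stages. The call of zgc:113886 was lost without replicate A of every group and over all 7 stages. For grin2ab, a glutamate receptor subunit, the mean difference was -1.03 (SE 0.29, adjusted p = 0.011), and at 75% it held 0.158, 2.56 and 1.90 CPM in uninjected and 0.443, 0 and 0.0806 in ndr2. The neurobeachin gene nbeaa had a mean difference of -0.63 and the coactivator gene cited2 one of -0.62. Without uninjected replicate A these 3 were at -1.39, -0.91 and -0.90, and their calls were lost in 6, 5 and 7 of 17 alternatives, among them leaving out uninjected B or C. Oocyte genes among the 26 were gdf3 (0.61 ± 0.15), cpeb1b (0.59 ± 0.18), patl2 (0.54 ± 0.19) and wee2 (0.79 ± 0.26), given as mean log2 difference and SE. The edgeR adjusted p was 0.0499 for patl2 and 0.039 for wee2. Not called were h1m, zp3c, zp3d.1, lsm14b, slbp2 and eomesa. Over whole lists, 2 of 19 tested egg coat genes were higher and 4 lower, and of 76 oocyte RNA regulators 7 and 5. Of 85 oocyte chromatin genes 5 were higher and 8 lower, and of 105 genes of meiosis and mitosis 4 and 12. Of 33 oocyte transcription factors and TGF-beta ligands 6 were higher and 5 lower.

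In CA-acvr1b* explants 5 members were higher than in uninjected over the same stages, where 2.13% of all genes were: her5, her11, has2, cth1 and fbxo32. Without uninjected replicate A 4 were higher and 7 lower, without uninjected C 9 were higher, and without CA-acvr1b* A 3 were. The cth1 transcript held 5.91, 18.1 and 10.8 CPM at 75% in uninjected, 27.3, 20.4 and 21.5 in ndr2 and 41.2, 23.9 and 35.4 in CA-acvr1b*, so all injected libraries were above all uninjected ones, and its mean difference for CA-acvr1b* was 0.89 (SE 0.15, adjusted p = 2.9e-05).

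The 2 injected conditions can be set against each other without the uninjected libraries. Over the 5 stages 9 members were higher in ndr2 than in CA-acvr1b*, where 3% of all genes were, and 5 lower, where 4.7% were. The total of 14 was 7 without ndr2 A or ndr2 B and 5 without CA-acvr1b* B. The highest were wee2, zgc:113886 (ENSDARG00000077712) and FO834825.2, and the lowest her11, her5 and grin2ab. The oocyte kinase gene wee2 held 38.5, 107 and 94.5 CPM in ndr2 and 29.4, 19.3 and 49.3 in CA-acvr1b* explants at 50% epiboly, where the groups overlap, and its mean difference was 1.05 (SE 0.27, adjusted p = 0.01). That call was lost without replicate B or C of ndr2 and without replicate A or B of CA-acvr1b*. Of 17 alternatives, the call of her5 was lost in 7, that of grin2ab in 5 and those of zgc:113886 and FO834825.2 in 4 each. For her11 the mean difference was -1.49 (SE 0.22, adjusted p = 4.4e-06), and it stayed past the threshold in all 17 alternatives tried.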

How the data were processed

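Polyadenylated RNA from whole explants was sequenced in 63 libraries. The authors deposited whole-number counts of reads per gene. The submitters' processing notes name Trim Galore, STAR and featureCounts and the builds danRer11 and GRCz11. Tool versions and the strand setting are not given in the sources used here, so reads of a gene and an antisense partner may not be told apart. Genes were kept by filterByExpr (minimum count 10, total 15), which left 19069 genes with 99.97% of the counts. edgeR 4.0.16 in R 4.3.3 fitted all 21 groups with TMM scaling and the robust quasi-likelihood F-test (42 residual degrees of freedom, biological coefficient of variation 0.309). Benjamini-Hochberg adjustment ran over every gene in the fit, with calls made at an adjusted p-value under 0.05. The slope is the least-squares slope of the fitted log2 level on hours over 5 stages. Fold changes use a prior count of 0.125. DESeq2 1.42.0 was one alternative. The scripts were tested on simulated data.

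The members, role lists, marker lists and tests were chosen with earlier results of these data known. Genes are named where they were the 10 highest by ratio, extreme among the called slope or mean differences, on the oocyte lists, or at the edge of the rule. Others, such as igdcc3, tenm4, rbm46, fbxo32 and larp6b, were chosen after their values were seen. Gene names matched for 179 of 191 members, and 163 were placed by name in the GRCz12tu gene order, which was used only for neighbours. P-values weigh a difference against the spread between replicates, pooled over all 21 groups of 3 and moderated across genes. A group that varies more than the others is not given a spread of its own.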

Additional observations from a re-analysis of the deposited data

Results flagged for a closer look

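A few members differed in slope between conditions by a test of that difference (edgeR, adjusted over all genes). For CA-acvr1b* minus uninjected these were her5, at 1.79 (SE 0.27, adjusted p = 1.4e-05), her11, at 0.94 (SE 0.14, adjusted p = 1.3e-05), has2, at 0.88 (SE 0.18, adjusted p = 0.0028), and znf710a, at 0.37 (SE 0.10, adjusted p = 0.039) log2 per hour. For ndr2 minus uninjected it was znf710a, at 0.46 (SE 0.10, adjusted p = 0.0047). For ndr2 minus CA-acvr1b* they were her11, at -0.96 (SE 0.14, adjusted p = 4.5e-05), and her5, at -1.16 (SE 0.19, adjusted p = 6.7e-04). Groups of 3 libraries were too small to test for single outlying samples. Uninjected replicate A stood apart as a series, and counts without it are given above.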

How the results depend on the processing

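Loss itself kept its count. Members that fell from 30% to 90% epiboly numbered 190 to 191 in uninjected, 190 to 191 in ndr2 and 189 to 190 in CA-acvr1b* explants when replicates were left out, and 93 of 93 in each when the rule took the top 100.

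Counts of differences between conditions moved more, and the cause was not tested. The share of all genes called in each alternative is not given here. Leaving out replicates gave 0 to 12 members for the slope of ndr2 minus uninjected, 2 to 10 for CA-acvr1b* minus uninjected and 0 to 2 for ndr2 minus CA-acvr1b*. For the mean level the ranges were 13 to 43, 3 to 17 and 2 to 23, at 90% epiboly 1 to 19, 3 to 15 and 0 to 3, and at shield 0 to 8, 0 to 1 and 0 to 2.

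For the slope of ndr2 minus uninjected the count was 2 with RLE scaling, 2 with library totals, 2 over 50% to 90% epiboly and 20 over all 7 stages, which takes in the stages the rule used. It was 8 with DESeq2 (1 shallower and 7 steeper slopes), and 0 with the top 100 or with the rule run on CA-acvr1b* libraries. For CA-acvr1b* minus uninjected it was 14 over all 7 stages, 2 with the top 100 and 1 with the rule run on ndr2 libraries. For ndr2 minus CA-acvr1b* it was 4 with only the libraries compared, 0 over all 7 stages and 1 with the top 100.

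For the mean level of ndr2 minus uninjected the count was 18 without 50% epiboly and 16 with the top 100. For CA-acvr1b* minus uninjected it was 11 over all 7 stages, 8 with DESeq2, 3 with the top 100 and 2 with the rule run on ndr2 libraries. For ndr2 minus CA-acvr1b* it was 35 with only the libraries compared, 9 without 50% epiboly, 24 with DESeq2 and 8 with the top 100. At 90% epiboly ndr2 minus uninjected gave 1 with only the libraries compared, 6 with DESeq2 and 1 with the top 100, CA-acvr1b* minus uninjected 9 with DESeq2, 2 with the top 100 and 0 with the rule run on ndr2 libraries, and ndr2 minus CA-acvr1b* 6 with only the libraries compared and 1 with the top 100. At shield the libraries compared alone gave 25 for ndr2 and 2 for CA-acvr1b* minus uninjected and 1 between them, and DESeq2 gave 20, 1 and 1.

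Replicate letters showed no clear pairing of the samples. At 0 of 7 stages were all correlations of same-lettered samples above the low cutoff used, though at some stages all were weakly above 0. The median correlation was 0.04, -0.03 and -0.03 over the 3 comparisons, and the highest 0.19, 0.29 and 0.15. Whether a letter marks a shared clutch is not given in the sources used here. With the replicate block the slope of ndr2 minus uninjected differed for 2 members. The measure chosen after seeing the data was the shield contrast, with its counts of libraries that do not overlap and the half-times. Without uninjected A, 83 members (43.5%, where 17% of all genes were) lay higher in every ndr2 library at shield, and 37 (19.4%, where 9.59% were) in every CA-acvr1b* library. Of the 21 slope and mean differences recomputed for genes named by the rule, 0 changed sign in the alternatives tried.

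Low counts limit the late stages: at 3 counts the floor is 0.153 to 0.255 CPM, near the late level of many members.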
